A study of Mus musculus with 12 samples.

Results

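Lungs of irradiated mice given simvastatin were compared with lungs of irradiated mice on whole-genome Affymetrix arrays. The comparison used 6 of the 12 arrays of the series, 3 titled SIMVA-Radiation and 3 titled Radiation, with groups taken from the titles and treatment labels. SIMVA-Radiation mice had one dose of 25 Gy and intraperitoneal simvastatin at 10 mg/kg, 3 times a week before and after the dose, and lungs were taken 6 weeks after it. Radiation mice had the dose of 25 Gy and were also sampled at 6 weeks. Their label names no vehicle. All 6 arrays are labelled as wild type, with an age of 8 to 12 weeks. The study's title names vascular leak and inflammation after lung irradiation as its subject. The other 6 arrays, 3 SIMVA and 3 vehicle-treated Control, are given only where they bear on a result. One description, of control tissue, is repeated on all 12 arrays and was ignored. The labels do not state whether each array is a different animal, so a p-value here reflects array-to-array spread that may be technical. Each array goes by its group and replicate number, and all levels are deposited log2 intensities, so a difference of 1 is a change of 1 doubling.

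Simvastatin, a statin, blocks the synthesis of mevalonate. Mevalonate feeds cholesterol synthesis and the isoprenoid chains that anchor small GTPases to membranes, and loss of sterols normally makes the factor SREBP raise the genes of cholesterol synthesis. Ionising radiation damages DNA and activates p53, which switches on genes of cell cycle arrest and cell death. In the lung a high dose is followed over weeks by leak through the vessel wall, entry of leukocytes and, later, fibrosis.

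The array labelled SIMVA-Radiation 3 stood apart. Over 10342 probe sets with a mean above log2 9, the SD of its differences from SIMVA 1 was 0.111 and from SIMVA 3 was 0.114, while it was 0.532 from SIMVA-Radiation 1 and 0.518 from SIMVA-Radiation 2. The 63 pairs of arrays outside this near-identical group of 3 had SDs of 0.336 to 1.02. Differences, list medians and counts of separated genes are therefore given also without SIMVA-Radiation 3, which leaves 2 arrays against 3. Square brackets after a difference hold the difference without that array. Radiation 3 was closer to SIMVA-Radiation 3, with an SD of 0.368, than to Radiation 1 (0.615) or Radiation 2 (0.679). Y-linked and X-linked genes also cut across the groups. Eif2s3y, a Y-linked translation factor gene, was 2.80, 2.82 and 2.86 on SIMVA-Radiation arrays 1 to 3, against 10.39, 3.46 and 2.82 on Radiation arrays 1 to 3. Xist, the RNA that coats the inactive X chromosome of female cells, was 14.08, 13.64 and 13.91, against 2.50, 12.29 and 13.78. Radiation 1 thus carried the Y-linked signal and almost no Xist, and the other 5 arrays had high Xist and little Y-linked signal. Of those 5, Radiation 2 had the lowest Xist and the highest Eif2s3y.

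The p53 target genes, which mark irradiated tissue, went against the label of the same array. Cdkn1a (p21, which halts the cell cycle; Entrez gene 12575) was 13.19, 13.17 and 11.18 on SIMVA-Radiation arrays 1 to 3, against 13.36, 13.12 and 13.42 on Radiation arrays 1 to 3. SIMVA-Radiation 1 and 2 lay within the range of the Radiation arrays and SIMVA-Radiation 3 well under it. The difference (SIMVA-Radiation minus Radiation, ± SE) was -0.79 ± 0.53 with an adjusted p of 0.527 by limma, and -0.12 ± 0.12 without SIMVA-Radiation 3. Eda2r, a death-receptor gene induced by p53, was 7.67, 7.75 and 4.33, against 8.02, 8.43 and 8.39. No SIMVA-Radiation array reached the Radiation arrays here, by a difference of -1.70 ± 0.90 (adjusted p 0.459) and of -0.57 ± 0.20 (adjusted p 0.262) without SIMVA-Radiation 3. On the arrays outside the comparison, Cdkn1a read 11.09, 13.36 and 11.11 on SIMVA 1 to 3 and 10.25, 10.69 and 13.01 on Control 1 to 3, so SIMVA 2 and Control 3 were close to the Radiation arrays. All directions given here rest on the labels as they stand.

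Of the p53 target genes 29 of 36 listed were tested, and 21 of them had lower means in SIMVA-Radiation. The 3 SIMVA-Radiation values all lay under the 3 Radiation values for 8 of them and all above for 0. Among all genes tested such separation was found for 13.6% in the lower and 3.72% in the higher direction. Without SIMVA-Radiation 3 these shares were 27.7% and 10.9%, and the p53 counts were 11 lower (37.9%) and 2 higher. Of all genes 63% had a negative difference. Pmaip1 (Noxa, a promoter of cell death) was 10.01, 9.63 and 8.85, against 10.45, 10.62 and 10.31, a difference of -0.96 ± 0.30 (adjusted p 0.428) and of -0.64 ± 0.18 without SIMVA-Radiation 3. Zmat3, a p53-induced RNA-binding protein gene, was 10.34, 10.56 and 9.34, against 10.79, 11.15 and 10.90, a difference of -0.87 ± 0.32 and of -0.50 ± 0.16 without that array. For both genes SIMVA-Radiation 3 was the lowest of the 6 arrays and the other 2 SIMVA-Radiation arrays lay under all Radiation arrays. Trp53inp1, which aids p53 in triggering cell death, differed by -0.46 ± 0.19 [-0.25 ± 0.11], and the cyclin gene Ccng1, the brightest member, by -0.67 ± 0.37 [-0.23 ± 0.17]. Mdm2, which degrades p53, was 9.80, 9.65 and 9.52, against 9.44, 9.51 and 9.92, and the groups overlapped. The median difference over the list was -0.31, against -0.095 over all genes tested, and -0.18 without SIMVA-Radiation 3.

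**Figure D1:**
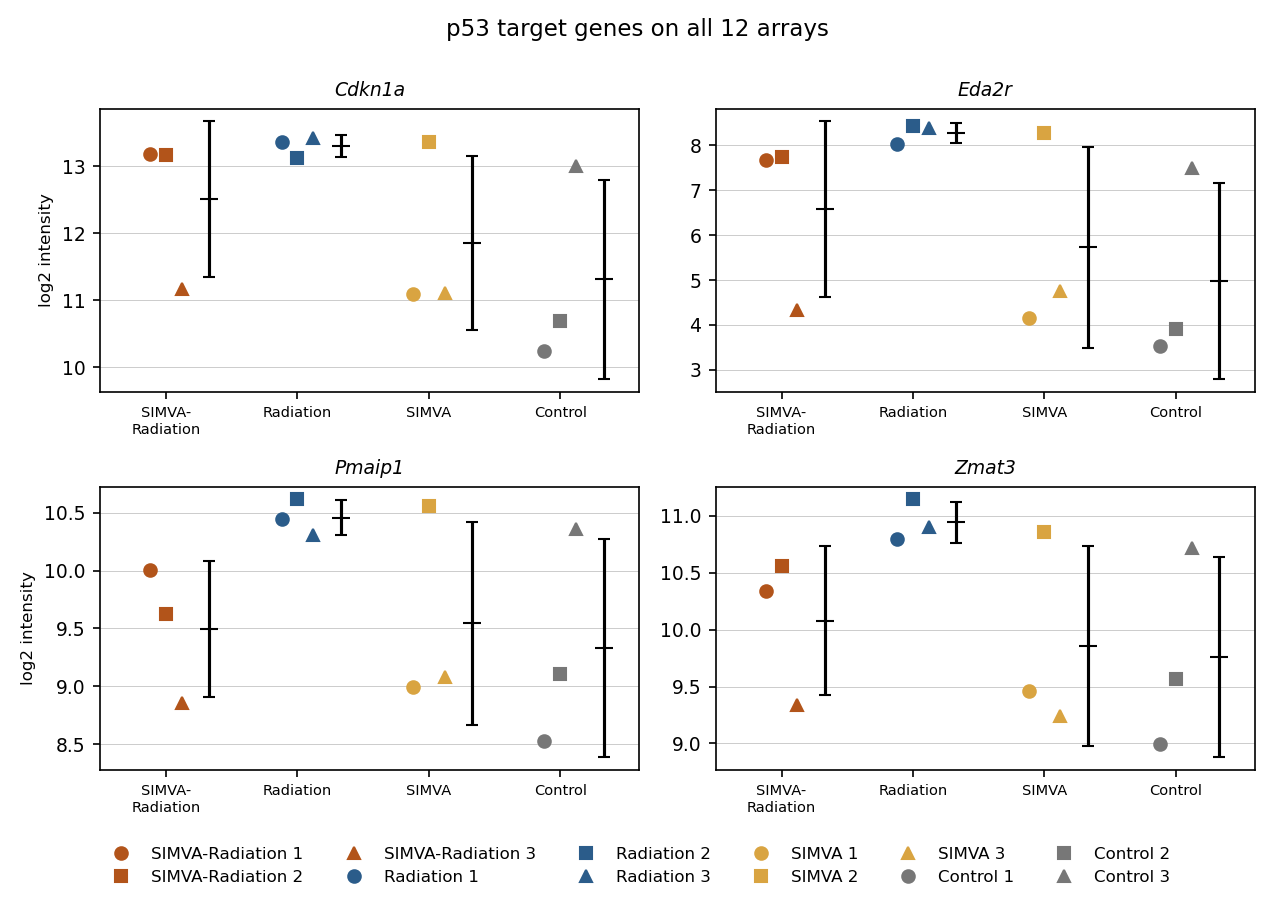
Log2 intensity of 4 p53 target genes on all 12 arrays, with 1 point per array by group and replicate and a bar for the mean and SD of each group (n = 3). SIMVA-Radiation 3 lies under the other SIMVA-Radiation arrays in each panel, and SIMVA 2 and Control 3 lie near the Radiation arrays, away from the rest of their own groups.

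Across the genome no single gene passed. By limma 0 of 11441 genes had an adjusted p under 0.05 (0% of genes tested), and the lowest adjusted p was 0.329. At an unadjusted p under 0.05 there were 1326 genes, 343 higher and 983 lower in SIMVA-Radiation, where 572.1 would be expected without any difference. Without SIMVA-Radiation 3 the count of genes that passed was again 0, with a lowest adjusted p of 0.0701 and 1955 genes at an unadjusted p under 0.05. The lists of this report therefore hold no called gene, and they are described by values, by counts of genes whose groups did not overlap and by medians. Array medians lay between 4.94 and 5.03 in SIMVA-Radiation and between 4.42 and 4.88 in Radiation, while upper quartiles were 8.82 to 8.83 and 8.82 to 8.85. Centring each array on its median moved every difference by -0.36. Separation in the higher direction was then found for 0.717% of genes and in the lower direction for 36%, so the split between directions depends on the scale. Quantile normalization changed less, with a median difference of -0.109, against -0.095 as deposited, and 1322 genes at an unadjusted p under 0.05 by limma.

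Leaving out 1 array did change the count. Without Radiation 3, 63 genes passed (0.551% of genes tested), 54 higher and 9 lower in SIMVA-Radiation, with a lowest adjusted p of 0.0261. In 62 of the 63, Radiation 3 lay nearer the SIMVA-Radiation mean than the mean of Radiation 1 and 2, and in 53 the vehicle-treated array Control 3 lay nearer Radiation 1 and 2. These genes passed only with Radiation 3 left out, so the first count was largely set by how they were picked. Neither share was computed over all genes tested. The 6 genes that follow were chosen after their values were seen. Meg3, an imprinted long noncoding RNA, was 10.01, 10.01 and 10.10, against 7.49, 7.61 and 9.95, a difference of 2.49 ± 0.13 without Radiation 3 (adjusted p 0.0261) and of 1.69 ± 0.64 with it (adjusted p 0.428) [1.66 ± 0.77]. The X-linked noncoding RNA Firre was 8.02, 7.88 and 8.29, against 5.69, 5.71 and 7.98. Airn, the imprinted antisense RNA at the Igf2r locus, was 9.28, 8.94 and 9.30, against 7.33, 7.14 and 9.26. Among the 6 arrays all 3 RNAs were low on Radiation 1 and 2 only. Nnt, the mitochondrial transhydrogenase gene of which some mouse strains carry a broken copy, was 10.82, 10.94 and 11.08, against 12.32, 12.57 and 10.89. Erdr1, a gene near the X chromosome's pseudoautosomal end, was 13.19, 13.03 and 13.80, against 9.20, 8.77 and 13.66, and Akr1c14, an aldo-keto reductase gene, was 12.31, 12.18 and 12.33, against 13.77, 13.64 and 12.12. Control 1 to 3 read 13.64, 11.28 and 9.36 for Erdr1 and 11.31, 10.59 and 12.17 for Nnt. Control 3 was thus near Radiation 1 and 2 for both, and for Firre at 5.99. For Meg3 (8.44) and Airn (8.26) it lay between Radiation 1 and 2 and the SIMVA-Radiation arrays. For Akr1c14 (12.55) it lay nearer the SIMVA-Radiation arrays. SIMVA 2 was also high for Nnt, at 12.01. Control 3 read 10.25 for Eif2s3y and 2.45 for Xist, near Radiation 1 (10.39 and 2.50) and unlike Radiation 2 (3.46 and 12.29). Eif2s3y and Xist thus do not divide the arrays in the same way. What Radiation 1 and 2 share with Control 3 was not tested.

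**Figure D2:**
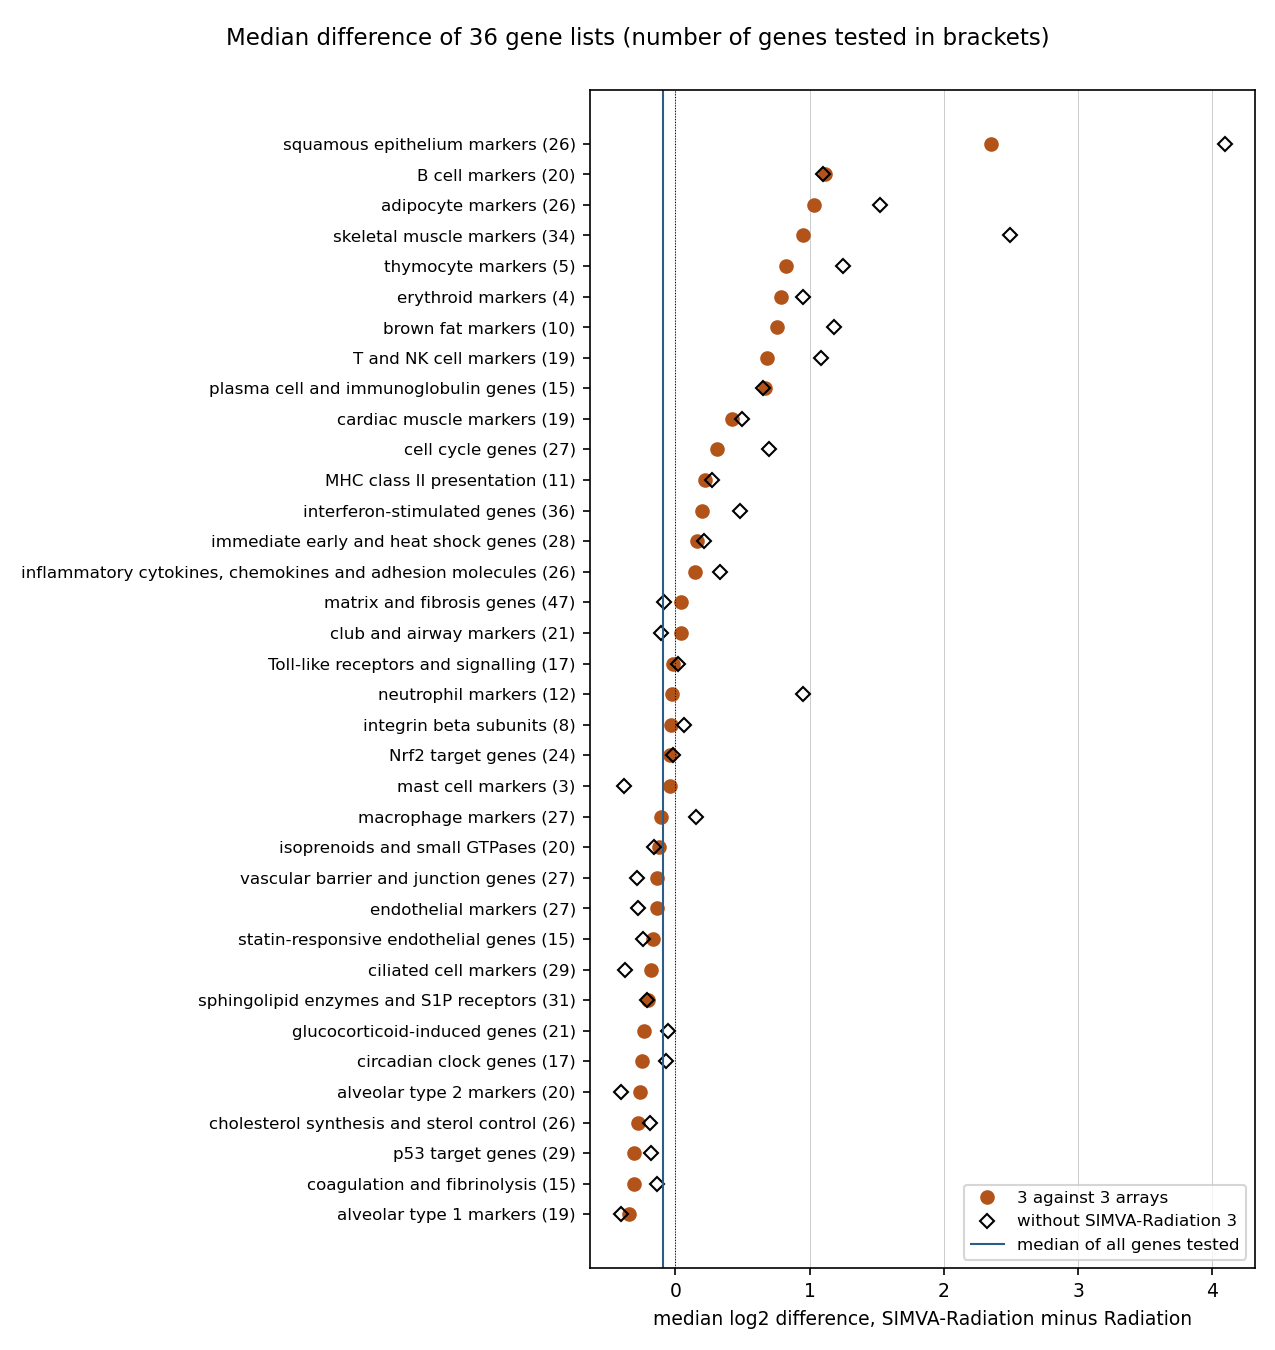
Median log2 difference, SIMVA-Radiation minus Radiation, of 36 gene lists with 3 against 3 arrays (filled) and without SIMVA-Radiation 3 (open). The vertical line marks the median of all 11441 genes, -0.095. Among the filled points, squamous epithelium, B cell, adipocyte and skeletal muscle markers lie farthest to the right and alveolar type 1 markers farthest to the left, while among the open points thymocyte (1.25) and brown fat (1.18) markers lie to the right of B cell markers (1.10), and type 1 and type 2 markers are level at -0.41.

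Genes for 3 antibody parts, Iglv1, Ighm and Jchain, were among the 10 of lowest p in the higher direction, each higher on every SIMVA-Radiation array than on any Radiation array. A variable gene of the kappa light chain (Entrez gene 692169) was 8.47, 7.46 and 9.97 on SIMVA-Radiation arrays 1 to 3, against 2.63, 2.32 and 3.20 on Radiation arrays 1 to 3. Its Radiation values all lay under the filter at log2 4.79, so it was kept only through the group where it was high, as 1 of 14 genes with a group wholly under the filter, and neither its difference nor its test is used. Iglv1, a variable gene of the lambda light chain, was 11.40, 11.83 and 10.55, against 7.93, 8.45 and 7.88, a difference of 3.18 ± 0.35 (adjusted p 0.329) and of 3.53 ± 0.25 (adjusted p 0.0701) without SIMVA-Radiation 3. Ighm, the heavy chain of IgM, was 14.89, 14.51 and 13.85, against 10.76, 11.47 and 12.54, a difference of 2.83 ± 0.48 (adjusted p 0.428), 3.11 ± 0.51 without SIMVA-Radiation 3, and 3.30 ± 0.37 without Radiation 3 (adjusted p 0.0488). Jchain, which links IgM and IgA subunits into polymers, was 13.86, 13.33 and 12.48, against 10.47, 10.36 and 11.01, a difference of 2.61 ± 0.36 (adjusted p 0.335) and of 2.98 ± 0.26 (adjusted p 0.0701) without SIMVA-Radiation 3. Radiation 3 had the highest Ighm and Jchain of the Radiation arrays, and all 3 of them stayed under every SIMVA-Radiation array. Variable-region probe sets can bind transcripts of related variable genes, so the gene named for such a probe set is uncertain.

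The remaining plasma cell genes were less uniform. Of 27 listed plasma cell and immunoglobulin genes 15 were tested, 10 with a positive and 5 with a negative difference, and the median difference was 0.67. Wholly above the Radiation arrays lay 6 (40%, against 3.72% of all genes), and wholly below 2 (13.3%, near the 13.6% of all genes). The 2 below were Prdm1 (-0.81) and Creld2 (-0.45), and Sdc1 was lower by -0.29 with overlap. Without SIMVA-Radiation 3 the counts were 7 above (46.7%, against 10.9% of all genes) and 3 below (20%, against 27.7%), with a median of 0.65. Mzb1, a chaperone of antibody assembly in the endoplasmic reticulum, was 9.39, 9.54 and 8.35, against 6.66, 6.89 and 7.65, a difference of 2.02 ± 0.40 (adjusted p 0.428) and of 2.39 ± 0.33 without SIMVA-Radiation 3. Xbp1, which drives the secretory machinery of plasma cells and is also made by lung epithelium, was 13.49, 13.33 and 13.54, against 13.50, 13.45 and 13.67, and its groups overlapped. Mzb1 was thus separated between groups while the brightest member of the list was not.

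B cell markers were higher on most counts. Of 20 tested of 26 listed, 19 had a positive difference, 9 lay wholly above the Radiation arrays (45%, against 3.72% of all genes) and 0 wholly below. Without SIMVA-Radiation 3, 10 of 20 lay wholly above (50%), against 10.9% of all genes. The median difference was 1.11, against -0.095 over all genes, 1.10 without SIMVA-Radiation 3 and 0.75 after centring on array medians. Cr2, the complement receptor of mature B cells, was 6.72, 7.52 and 6.61, against 4.03, 5.65 and 5.65, a difference of 1.84 ± 0.51 (adjusted p 0.428) [2.01 ± 0.59]. Blnk, the adaptor that relays the B cell receptor signal, was 8.77, 9.81 and 8.82, against 7.52, 8.08 and 8.26, a difference of 1.18 ± 0.34 [1.34 ± 0.38]. Tnfrsf13c, the receptor for the B cell survival factor BAFF, was 6.79, 8.17 and 7.81, against 5.92, 6.60 and 6.63, a difference of 1.21 ± 0.40 [1.10 ± 0.47]. SIMVA-Radiation 2 was the highest array for Blnk and Tnfrsf13c, and Radiation 1 the lowest. The transcription factor gene Bcl11a differed by 1.07 ± 0.36 [1.18 ± 0.42] without overlap. Ms4a1 (CD20), the brightest marker, was 9.43, 10.96 and 9.94, against 8.38, 9.68 and 9.01, with Radiation 2 above SIMVA-Radiation 1. In bulk tissue, fewer cells of a type and less RNA per cell cannot be told apart. Ighm read 13.82, 10.69 and 13.78 on SIMVA 1 to 3, so SIMVA-Radiation 3 had the level of its near-identical arrays.

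**Figure D3:**
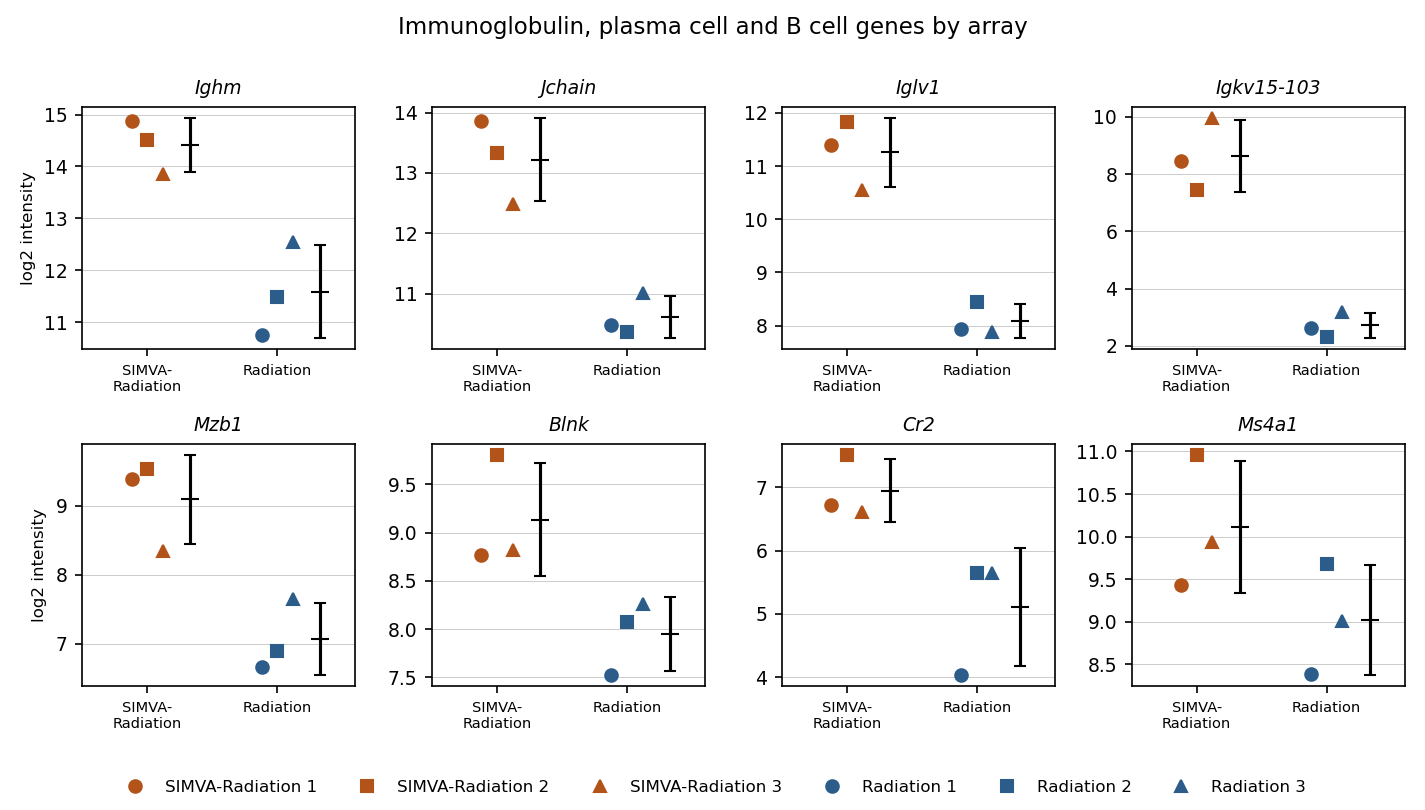
Log2 intensity of 8 antibody, plasma cell and B cell genes by array, SIMVA-Radiation at left and Radiation at right, with 1 point per array and a bar for the mean and SD (n = 3). The groups overlap for Ms4a1 and are separate in the other panels.

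The promoter of Blnk is shown because, of the 17 measured B cell markers with a promoter window, it was the one that held the octamer ATGCAAAT, the motif read by Oct-1, which most cell types make, and Oct-2, which is largely a factor of the B lineage. Windows run from 250 bases before to 50 after a RefSeq start site (GRCm38.p6), and both strands were searched. The octamer was found in the windows of 532 of 27025 genes (1.97%), of 1 of 17 B cell markers and of 1 of 9 plasma cell and immunoglobulin genes. The Blnk window lies on the minus strand at chr19:40994172-40994471, and the capitals mark the octamer as read on the opposite strand, starting 130 bases before the start site. A match is a description of letters in this window.
Blnk: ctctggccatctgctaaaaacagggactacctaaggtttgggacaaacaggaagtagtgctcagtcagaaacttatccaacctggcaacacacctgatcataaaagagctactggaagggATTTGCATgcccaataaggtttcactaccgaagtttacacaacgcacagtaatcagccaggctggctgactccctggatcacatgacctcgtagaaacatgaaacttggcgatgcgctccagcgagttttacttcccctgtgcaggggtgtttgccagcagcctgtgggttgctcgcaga

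Mean levels of T cell and thymocyte markers were highest of the 6 arrays on SIMVA-Radiation 1, while single members differed in direction. The mean level of 19 tested T and NK cell markers was 7.86, 7.38 and 6.50 on SIMVA-Radiation arrays 1 to 3, against 6.08, 6.81 and 6.87 on Radiation arrays 1 to 3, so SIMVA-Radiation 3 lay within the Radiation range. Their median difference was 0.68, with 16 positive and 3 negative, and 1 of 19 lay wholly above (5.26%, against 3.72% of all genes). Without SIMVA-Radiation 3 the median was 1.08 and the count 9 of 19 (47.4%, against 10.9% of all genes). Gzma, the brightest of the list, differed by -0.27 ± 0.32 [-0.21 ± 0.38] with overlap. Differences were -0.265 for Klrk1, -0.041 for Lef1, 0.050 for Klrd1 and 0.038 for Il2rb. The 1 gene separated with all arrays was Bcl11b, a factor of T cell commitment, at 9.99, 8.00 and 8.10, against 6.32, 6.68 and 7.14, a difference of 1.98 ± 0.56 [2.28 ± 0.61]. Satb1, a chromatin organiser abundant in thymocytes, was 12.15, 9.99 and 9.82, against 8.51, 8.73 and 9.15, and Cd8b1, a co-receptor of cytotoxic T cells and thymocytes that missed the filter on dim probe sets, was 8.90, 5.62 and 3.01, against 3.08, 3.49 and 3.12. Of the 5 tested thymocyte markers, 2 lay wholly above (40%, against 3.72% of all genes) and 1 wholly below (20%, against 13.6%). The median was 0.82. Without SIMVA-Radiation 3 these values were 3 (60%, against 10.9%), 1 (20%, under 27.7%) and 1.25. The 1 below was Tcf12, the brightest of them, which differed by -0.21 ± 0.10 [-0.22 ± 0.12]. Cd1d1, which presents lipids to NKT cells, was among the 10 genes of lowest p at 11.10, 11.05 and 10.68, against 9.65, 9.87 and 9.73, a difference of 1.19 ± 0.16 (adjusted p 0.329) [1.32 ± 0.13].

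Markers of fat were high on SIMVA-Radiation 1 and 2. Mean levels of 26 adipocyte markers were 11.91, 11.63 and 10.13, against 10.12, 10.32 and 9.96, so SIMVA-Radiation 3 lay among the Radiation arrays. For 7 of them (26.9%, against 3.72% of all genes) the groups did not overlap, all in the higher direction. The median difference was 1.03, with 24 positive and 2 negative. With SIMVA-Radiation 3 left out, 21 (80.8%, against 10.9% of all genes) lay wholly above, with a median of 1.52. Adipoq, which encodes adiponectin, was 13.52, 13.58 and 11.86, against 11.17, 10.22 and 10.90, a difference of 2.23 ± 0.50 (adjusted p 0.428) and of 2.79 ± 0.29 (adjusted p 0.0701) without that array. Retn, which encodes the fat cell hormone resistin, was 10.44, 11.02 and 9.69, against 8.60, 8.49 and 8.86, a difference of 1.74 ± 0.33 [2.08 ± 0.23]. Of the 10 genes of lowest p in the higher direction, Car3, a carbonic anhydrase of fat and muscle, was 15.26, 15.24 and 14.86, against 14.30, 13.81 and 14.16. Lgals12, a galectin of adipocytes, differed by 2.14 ± 0.30 [2.40 ± 0.25], and Aoc3, an amine oxidase of adipocytes and vascular smooth muscle, by 2.03 ± 0.35 [2.25 ± 0.36]. Fabp4, a fatty acid carrier of fat cells and macrophages, was 15.25, 15.18 and 14.28, against 13.77, 13.98 and 13.61. These genes were separated on SIMVA-Radiation 3 too, by less. Scd1, the brightest of the list, differed by 0.10 ± 0.21 [0.34 ± 0.11] with overlap. Lpl (0.18), Cebpa (0.0086) and Cd36 (-0.11) overlapped too.

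Skeletal muscle, squamous and brown fat markers differed widely between arrays of one group. Acta1, skeletal muscle actin, was 14.90, 14.61 and 4.90, against 13.90, 12.79 and 5.39, a difference of 0.78 ± 3.32 [4.06 ± 2.53] that turned to -1.88 ± 3.22 without Radiation 3. Krt4, a keratin of squamous linings such as the oesophagus, was 13.77, 15.50 and 2.77, against 13.05, 3.07 and 2.75. Ucp1, which lets brown fat mitochondria release heat, was 12.58, 10.49 and 2.21, against 2.26, 8.74 and 2.24. SIMVA-Radiation 3 and Radiation 3 had low levels of all 3 genes, near the 10th percentile of all values at 2.05 for Krt4 and Ucp1. List means were 11.62, 11.42 and 7.10, against 10.51, 9.92 and 6.74, for 34 skeletal muscle markers, 9.67, 11.12 and 5.31, against 8.91, 5.80 and 5.17, for 26 squamous markers, and 10.77, 9.85 and 7.80, against 8.08, 9.28 and 7.76, for 10 brown fat markers. The groups did not overlap for 4 (11.8%, all higher, against 3.72% of all genes), 0 and 0 of them. The medians were 0.95, 2.35 and 0.76. With SIMVA-Radiation 3 left out, 32 of 34, 18 of 26 and 7 of 10 lay wholly above, against 10.9% of all genes, and the medians were 2.49, 4.09 and 1.18. Des, which encodes the muscle filament desmin, was separated at 11.77, 11.47 and 11.05, against 10.63, 10.56 and 10.26, as was the tropomyosin gene Tpm2 at 12.47, 12.66 and 12.45, against 11.82, 12.11 and 11.46.

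Cardiac muscle genes, which the sleeves of pulmonary veins also express, were separated upward for 5 of 19 (26.3%, against 3.72% of all genes). Tnnt2, cardiac troponin T, was 13.45, 13.59 and 13.62, against 12.78 to 13.30 on the Radiation arrays, a difference of 0.53 ± 0.14 (adjusted p 0.428) [0.49 ± 0.17]. Actc1, cardiac actin, was 14.01, 14.09 and 14.11, against 12.90, 13.77 and 13.43, and Tnni3, cardiac troponin I, 11.71, 11.81 and 11.69, against 10.60, 11.50 and 10.96. Tnnt2, Actc1 and Tnni3 were high on SIMVA-Radiation 3 as well. The list median was 0.42, or 0.49 without that array, when 10 lay wholly above (52.6%, against 10.9% of all genes). After centring the median was 0.058, and 0 members were wholly above, against 0.717% of all genes. The level of fat, skeletal muscle and squamous markers thus varied with the array. Whether the amount of such tissue varied, and its part in the immune, alveolar and vascular values of this report, was not tested.

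**Figure D4:**
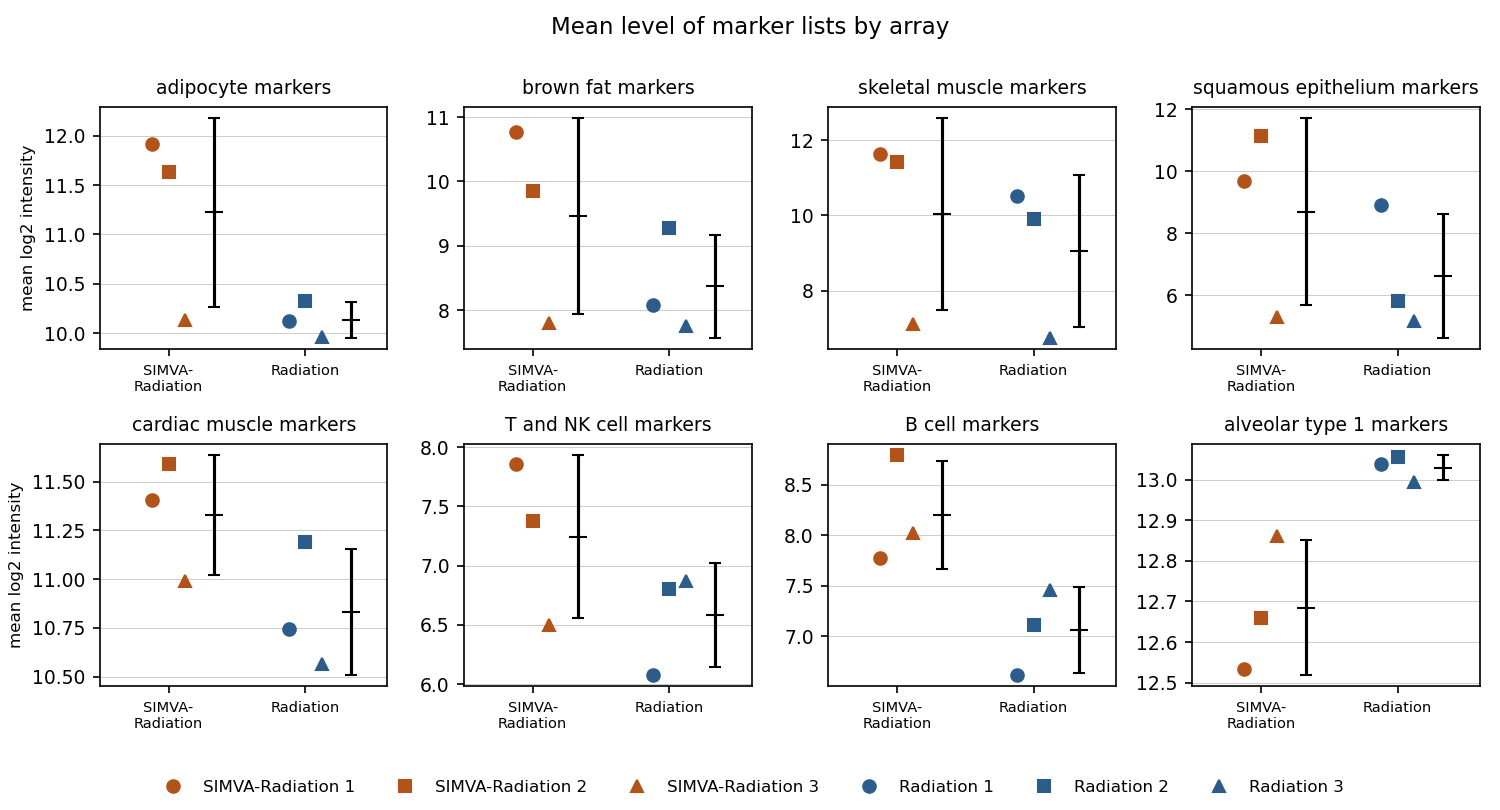
Mean log2 intensity of 8 marker lists by array, SIMVA-Radiation at left and Radiation at right, with 1 point per array and a bar for the mean and SD (n = 3). SIMVA-Radiation 3 lies with Radiation 3 for fat, skeletal muscle and squamous markers, above every Radiation array for B cell markers, and under every Radiation array for alveolar type 1 markers.

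Markers of the gas-exchange epithelium were lower in SIMVA-Radiation. All 19 listed alveolar type 1 markers were tested, 18 had a negative difference and 8 lay wholly under the Radiation arrays (42.1%, against 13.6% of all genes). Without SIMVA-Radiation 3, 16 of 19 did so (84.2%), against 27.7% of all genes. Clic5, a chloride channel family member of these thin cells, was 12.70, 12.88 and 12.95, against 13.56, 13.53 and 13.29, a difference of -0.62 ± 0.12 (adjusted p 0.428) and of -0.67 ± 0.13 (adjusted p 0.22) without SIMVA-Radiation 3. Rtkn2, a GTPase-binding protein gene, was 10.29, 10.30 and 10.83, against 11.61, 11.16 and 11.30, a difference of -0.88 ± 0.20 [-1.06 ± 0.17]. For both genes SIMVA-Radiation 3 was the highest of its group and still under all Radiation arrays. Lmo7, an adaptor of cell junctions, differed by -0.43 ± 0.13 [-0.44 ± 0.15] and Spock2, a matrix proteoglycan gene, by -0.53 ± 0.17 [-0.66 ± 0.15]. Ager (RAGE), the brightest marker, was 14.96, 14.97 and 15.08, against 15.17, 15.11 and 15.18, a difference of -0.15 ± 0.072 [-0.19 ± 0.073] without overlap. The list median was -0.35, -0.41 without SIMVA-Radiation 3, and list means were 12.53, 12.66 and 12.86, against 13.04, 13.06 and 12.99.

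Alveolar type 2 cells make surfactant, and 7 of 20 tested markers lay wholly under the Radiation arrays (35%, against 13.6% of all genes). The difference was negative for 17 and positive for 3, Sftpc (0.048), Scd1 (0.099) and Fasn (0.66), which overlapped. Sftpd (-0.11) overlapped as well. Chil1, a chitinase-like protein gene, was 13.15, 13.41 and 13.45, against 13.89, 13.92 and 13.75, a difference of -0.52 ± 0.11 (adjusted p 0.428) [-0.57 ± 0.12]. Sftpb, surfactant protein B, was 12.91, 13.21 and 13.38, against 13.64, 13.73 and 13.39, with SIMVA-Radiation 3 almost level with Radiation 3. Sftpa1, surfactant protein A, differed by -0.24 ± 0.092 [-0.27 ± 0.10]. Napsa, the protease that processes surfactant proteins, was 12.02, 12.64 and 12.33, against 13.19, 13.28 and 12.66, a difference of -0.72 ± 0.22 [-0.72 ± 0.26] that turned to 0.16 when all its probe sets were averaged. The type 2 median was -0.26, or -0.41 without SIMVA-Radiation 3. Without that array 13 lay wholly below (65%, against 27.7% of all genes) and 2 wholly above (10%, near 10.9%). After centring 9 lay wholly below (45%, against 36% of all genes). Airway markers lay near 0 on balance. For 21 club and airway markers the median was 0.039, -0.10 without SIMVA-Radiation 3 and -0.32 after centring, with 2 wholly above and 5 wholly below without that array. With all arrays 1 was separated, Bpifa1, an antimicrobial secretion of the airway, at 15.20, 15.06 and 15.34, against 14.57, 14.82 and 14.08. For 29 ciliated cell markers the median was -0.18 (-0.38 without SIMVA-Radiation 3), with 2 wholly lower (6.9%), or 15 (51.7%, against 27.7% of all genes) without that array.

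**Figure D5:**
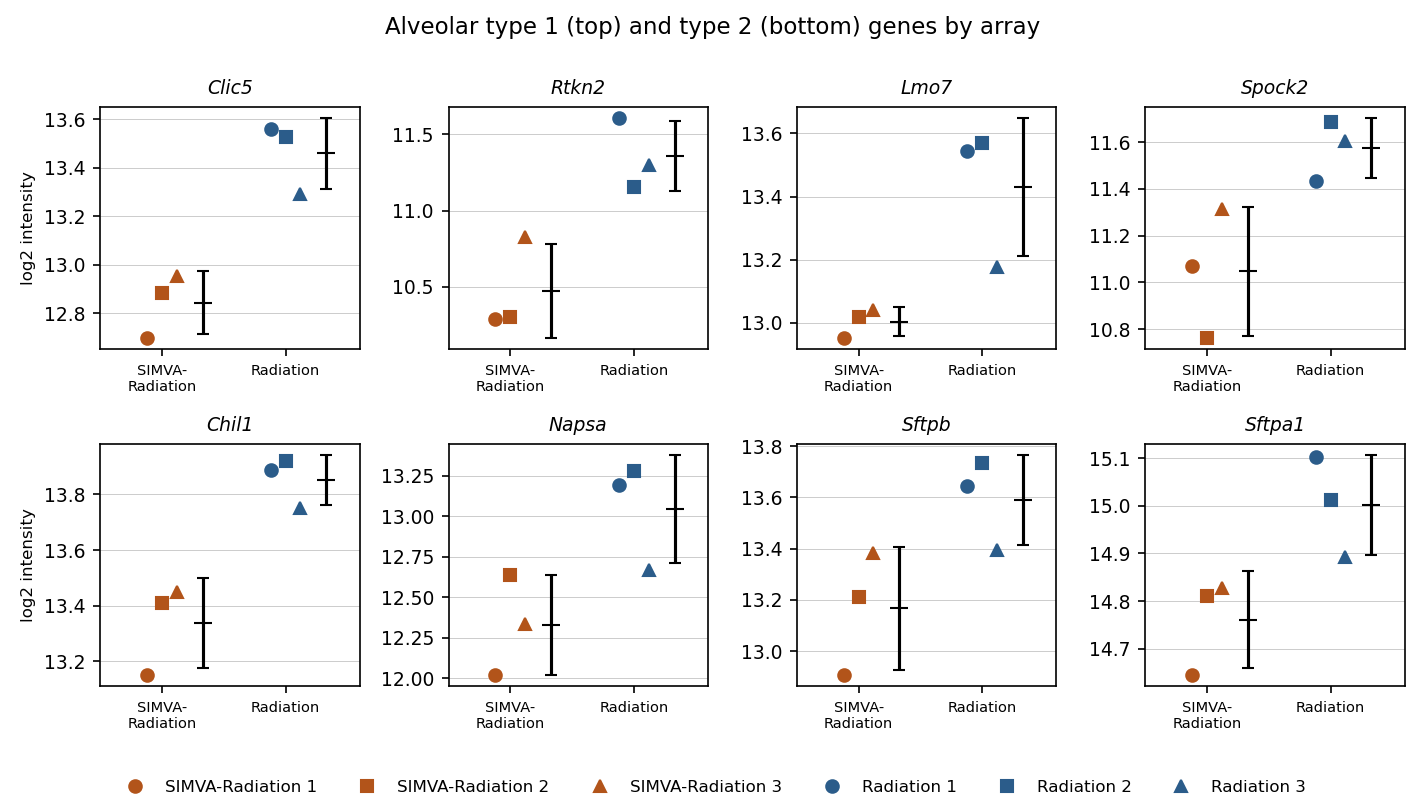
Log2 intensity of 4 alveolar type 1 genes (top) and 4 alveolar type 2 genes (bottom) by array, SIMVA-Radiation at left and Radiation at right, with 1 point per array and a bar for the mean and SD (n = 3). No SIMVA-Radiation array reaches the lowest Radiation array in any panel, and the smallest gap is that of Sftpb.

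No tested gene of the pathway that simvastatin blocks lay wholly above the Radiation arrays. Hmgcs1, an enzyme of the mevalonate pathway, was 12.81, 13.14 and 13.03 on SIMVA-Radiation arrays 1 to 3, against 13.01, 12.78 and 12.91 on Radiation arrays 1 to 3. The groups overlapped, with a difference of 0.095 ± 0.12 (adjusted p 0.738) [0.076 ± 0.14] that turned to -0.27 after centring on array medians. Its promoter is shown because, of 21 measured cholesterol genes with a window, it was the one that held the sterol element TCACNCCAC bound by SREBP, which was found in the windows of 388 of 27025 genes (1.44%). The window lies on the plus strand at chr13:119690101-119690400 (RefSeq, GRCm38.p6), and the capitals mark the element, which starts 137 bases before the start site.
Hmgcs1: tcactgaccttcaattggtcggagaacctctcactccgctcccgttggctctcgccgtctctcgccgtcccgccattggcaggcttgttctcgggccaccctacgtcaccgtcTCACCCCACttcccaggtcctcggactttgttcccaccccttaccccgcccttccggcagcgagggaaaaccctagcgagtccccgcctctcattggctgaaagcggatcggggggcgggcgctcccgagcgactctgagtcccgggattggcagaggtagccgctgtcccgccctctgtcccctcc

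Of 26 tested genes of cholesterol synthesis and sterol control, 4 had a positive difference. Wholly above the Radiation arrays lay 0 and wholly below 6 (23.1%, against 13.6% of all genes). The median was -0.28, or -0.19 without SIMVA-Radiation 3, when 7 lay wholly below (26.9%, near the 27.7% of all genes). After centring 8 did so (30.8%, against 36% of all genes). Abcg1, which exports cholesterol from cells, was 11.27, 10.92 and 10.83, against 11.60, 11.70 and 11.38, a difference of -0.55 ± 0.16 (adjusted p 0.428) and of -0.46 ± 0.17 without that array. Nr1h3, the sterol-sensing receptor LXR alpha that induces Abcg1, was 7.40, 7.69 and 6.94, against 8.30, 8.06 and 7.95, a difference of -0.76 ± 0.24 [-0.56 ± 0.20]. For both genes SIMVA-Radiation 3 was the lowest array. Insig2, which holds SREBP in the endoplasmic reticulum, was 10.68, 10.74 and 10.91, against 11.12, 11.19 and 10.96, a difference of -0.31 ± 0.12 [-0.38 ± 0.13].

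For 20 tested isoprenoid and small GTPase genes the median was -0.12, close to the -0.095 of all genes, -0.16 without SIMVA-Radiation 3, and 4 lay wholly below, or 7 without that array. Dhdds, which builds the dolichol chain, was 8.19, 8.47 and 8.58, against 8.88, 8.98 and 8.66, a difference of -0.43 ± 0.17 [-0.52 ± 0.19]. Rap1a, a prenylated GTPase of cell junctions, was 13.61, 13.71 and 13.62, against 14.00, 13.77 and 13.85, a difference of -0.22 ± 0.094 [-0.21 ± 0.11]. Among 15 endothelial genes known to respond to statins the median was -0.17 (-0.24 without SIMVA-Radiation 3). Wholly below lay 2 (13.3%, near the 13.6% of all genes), Entpd1 and Nt5e, or 5 (33.3%, against 27.7% of all genes) without that array. Entpd1 (CD39), which breaks down ATP outside cells, was 9.96, 10.14 and 10.08, against 10.76, 10.56 and 10.27, a difference of -0.47 ± 0.16 [-0.48 ± 0.18], and Nt5e (CD73), which completes the step to adenosine, differed by -0.32 ± 0.17 [-0.27 ± 0.20]. Cav1, the coat protein of caveolae and the brightest of the list, was 14.13, 14.26 and 14.45, against 14.55, 14.36 and 14.47, and overlapped.

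Barrier genes of the vessel and epithelial wall had a negative difference for 18 of 27 tested (66.7%, near the 63% of all genes), and 4 lay wholly under the Radiation arrays (14.8%, near the 13.6% of all genes). Ocln, the tight junction protein occludin, was 8.41, 9.14 and 9.23, against 10.19, 9.90 and 9.80, a difference of -1.04 ± 0.25 (adjusted p 0.428) and of -1.19 ± 0.26 (adjusted p 0.222) without SIMVA-Radiation 3. Angpt1, the ligand that seals vessels through the receptor Tie2, was 10.02, 10.28 and 10.49, against 11.11, 10.77 and 10.70, a difference of -0.60 ± 0.18 [-0.71 ± 0.18]. Vegfc, a lymphatic growth factor, was 10.50, 11.09 and 10.99, against 11.82, 11.58 and 11.17, a difference of -0.66 ± 0.23 [-0.73 ± 0.26]. SIMVA-Radiation 1 was the lowest array for all 3. Ctnnd1 (p120 catenin, which holds cadherins at junctions) differed by -0.56 ± 0.14 [-0.64 ± 0.14], and by 0.40 when its probe sets were averaged. The list median was -0.14, or -0.29 without SIMVA-Radiation 3, when 11 lay wholly below (40.7%, against 27.7% of all genes).

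Endothelial markers had a median of -0.14 over 27 genes (-0.28 without SIMVA-Radiation 3). Of them 3 were wholly lower (11.1%, under the 13.6% of all genes), or 7 (25.9%, under the 27.7% of all genes) without that array. Erg, a factor that keeps endothelial identity, was 9.78, 10.35 and 10.44, against 11.03, 11.08 and 10.61, a difference of -0.72 ± 0.22 (adjusted p 0.428) [-0.84 ± 0.24]. Calcrl, the receptor that binds adrenomedullin together with Ramp2 or Ramp3, differed by -0.21 ± 0.11 [-0.28 ± 0.10], and Tmem100, an endothelial target of BMP signals, by -0.42 ± 0.18 [-0.52 ± 0.19], or by 0.52 when its probe sets were averaged. Ramp3 itself was among the 10 genes of lowest p in the lower direction at 5.73, 5.74 and 5.47, against 7.77, 7.31 and 6.82, a difference of -1.65 ± 0.28 (adjusted p 0.428) [-1.56 ± 0.32]. Hspa12b, a chaperone relative made in endothelium, was 8.47, 8.57 and 8.54, against 9.32, 9.17 and 9.47, a difference of -0.79 ± 0.14 [-0.80 ± 0.16]. The SIMVA-Radiation values of Hspa12b lay close together and under every Radiation array. Npr3, the clearance receptor for natriuretic peptides, had the lowest p in this direction at 10.14, 10.44 and 10.33, against 11.89, 11.36 and 11.66, a difference of -1.34 ± 0.17 (adjusted p 0.329) and of -1.35 ± 0.20 without SIMVA-Radiation 3.

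Sphingolipid genes, which set levels of the barrier-protecting lipid S1P, had a negative difference for 24 of 31. Of the 31, 7 were wholly lower (22.6%, against 13.6% of all genes), and the median was -0.20. Without SIMVA-Radiation 3 the median was -0.21 and 7 were wholly lower (22.6%), under the 27.7% of all genes. Sgms1, which makes sphingomyelin, was 12.34, 12.41 and 12.04, against 12.74, 12.76 and 12.78, a difference of -0.50 ± 0.12 (adjusted p 0.428) [-0.39 ± 0.094]. Asah1, the acid ceramidase, was 12.07, 12.14 and 11.97, against 12.42, 12.59 and 12.29, and Sptlc1, a subunit of the enzyme that starts sphingolipid synthesis, 9.94, 10.45 and 10.06, against 10.87, 10.59 and 10.56. Coagulation genes had a median of -0.31 over 15 genes, -0.13 without SIMVA-Radiation 3, and 2 were wholly lower (13.3%, near the 13.6% of all genes), or 3 without that array. Tfpi, which blocks tissue factor, differed by -0.61 ± 0.19 [-0.65 ± 0.22], and Pros1 (protein S, a cofactor of protein C) by -0.29 ± 0.11 [-0.23 ± 0.12]. Of 8 integrin beta subunits the 1 separated gene was Itgb1, which pairs with many alpha chains, at 11.50, 11.92 and 11.65, against 12.36, 12.36 and 12.42, a difference of -0.69 ± 0.13 (adjusted p 0.428) [-0.67 ± 0.15]. The list median was -0.034, or 0.06 without SIMVA-Radiation 3, when 1 lay wholly above and 2 below.

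Inflammatory mediators gave a mixed picture. Of 26 tested genes 1 lay wholly above and 3 wholly below, with a median of 0.14 (-0.22 after centring). The counts were 5 and 4, with a median of 0.33, without SIMVA-Radiation 3. Cxcl13, the chemokine that draws B cells, was 10.66, 10.38 and 9.33, against 8.90, 8.35 and 7.10, a difference of 2.01 ± 0.54 (adjusted p 0.428) and of 2.41 ± 0.53 without SIMVA-Radiation 3. It was the gene wholly above with all arrays. Icam1, an adhesion molecule for leukocytes, was 13.02, 13.24 and 12.72, against 13.44, 13.44 and 13.38, a difference of -0.43 ± 0.14 [-0.29 ± 0.11]. Il33, an alarm signal of lung epithelium, was 11.16, 11.41 and 11.29, against 11.70, 12.21 and 11.44, a difference of -0.49 ± 0.21 [-0.49 ± 0.25]. Among 17 genes of Toll-like receptors and signalling the median was -0.019, with 1 wholly above and 3 below (0.016, 3 and 4 without SIMVA-Radiation 3). Tlr1, a receptor for bacterial lipopeptides, was 8.13, 7.90 and 7.52, against 6.57, 6.74 and 6.96, a difference of 1.09 ± 0.22 [1.26 ± 0.21], while Tirap, an adaptor of Tlr2 and Tlr4, was 8.75, 8.84 and 8.41, against 9.46, 9.17 and 9.23, a difference of -0.62 ± 0.17 [-0.49 ± 0.16]. Tlr4, the endotoxin receptor, differed by -0.44 ± 0.21 [-0.32 ± 0.22], so Tlr1 and Tlr4 were separated in opposite directions.

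Interferon-stimulated genes were separated for 1 of 36 upward and 1 downward, with a median of 0.20, and -0.16 after centring. With SIMVA-Radiation 3 left out the median was 0.48, and 9 lay wholly above (25%, against 10.9% of all genes) and 1 below. Psmb9, an immunoproteasome subunit, was 10.56, 10.19 and 10.23, against 9.31, 9.65 and 10.15, a difference of 0.62 ± 0.24 [0.67 ± 0.28]. Mx1, an antiviral GTPase chosen after its values were seen, was 6.97, 6.49 and 4.12, against 2.52, 2.56 and 5.35, and overlapped because SIMVA-Radiation 3 lay under Radiation 3. MHC class II presentation had a median of 0.22 over 11 genes (0.28 without SIMVA-Radiation 3, -0.14 after centring), and H2-DMb2, which helps load peptides, was 9.14, 9.77 and 9.79, against 7.73, 9.03 and 9.13, a difference of 0.93 ± 0.41 [0.82 ± 0.48].

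Myeloid markers lay in both directions. Of 27 macrophage markers 2 lay wholly above and 5 wholly below, with a median of -0.11 (7, 5 and 0.15 without SIMVA-Radiation 3). Marco, a scavenger receptor of lung macrophages, was 8.09, 6.54 and 7.36, against 4.07, 5.23 and 2.10. Of its Radiation values only that of Radiation 2 passed the filter at log2 4.79, and Radiation 3 lay near the 10th percentile at 2.05. It was kept through the SIMVA-Radiation values, so neither its difference nor its test is used, and its place in the count above carries no weight. Atp6v0d2, a proton pump subunit of macrophages and osteoclasts, was 7.90, 8.29 and 6.80, against 9.95, 10.46 and 8.47, a difference of -1.96 ± 0.60 [-1.53 ± 0.59]. Plet1, which alveolar macrophages express, was 10.90, 10.97 and 11.02, against 11.75, 11.85 and 11.26. Atp6v0d2 and Plet1 were thus lower on all SIMVA-Radiation arrays. Neutrophil markers averaged 10.26, 10.36 and 7.64, against 11.47, 7.45 and 9.27, over 12 genes, and the spread within each group exceeded that between them. Medians were -0.023 for neutrophil, -0.043 for 3 mast cell and 0.79 for 4 erythroid markers, with no separated gene in these lists. Without that array the medians were 0.95, -0.38 and 0.95, with 1 neutrophil marker wholly above and 1 mast cell marker wholly below.

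Matrix genes lay in both directions. Of 47 tested, 4 lay wholly above (8.51%, against 3.72% of all genes) and 6 wholly below (12.8%, near the 13.6% of all genes). The median was 0.04, and -0.32 after centring. Without SIMVA-Radiation 3 the counts were 7 and 7 (14.9% each, against 10.9% and 27.7% of all genes), with a median of -0.089. Decorin (Dcn), a proteoglycan that binds collagen fibrils and TGF-beta, was 13.45, 13.90 and 13.82, against 12.97, 12.94 and 12.79, a difference of 0.83 ± 0.14 (adjusted p 0.428) and of 0.78 ± 0.16 without SIMVA-Radiation 3. Fbln2, a glycoprotein of elastic fibres, was 8.24, 8.17 and 7.60, against 6.56, 7.46 and 6.57, a difference of 1.14 ± 0.32 [1.34 ± 0.33]. Smoc1, a secreted matricellular protein gene among the 10 of lowest p, was 6.83, 7.01 and 6.40, against 4.93, 4.98 and 4.94, a difference of 1.80 ± 0.23 (adjusted p 0.329) [1.97 ± 0.21]. These genes were higher on every SIMVA-Radiation array. Col4a2, a chain of basement membrane collagen, was 12.88, 12.91 and 12.68, against 13.24, 13.31 and 13.22, a difference of -0.44 ± 0.099 [-0.36 ± 0.09], and its partner Col4a1 differed by -0.37 ± 0.15 [-0.22 ± 0.094]. Timp3, an inhibitor of matrix proteases that binds basement membranes, was 13.09, 13.11 and 13.11, against 13.59, 13.71 and 13.47, a difference of -0.49 ± 0.093 (adjusted p 0.428) [-0.49 ± 0.11]. Tinagl1, another basement membrane protein gene, was 10.62, 10.55 and 10.36, against 11.27, 11.23 and 11.60, a difference of -0.86 ± 0.15 (adjusted p 0.428) [-0.78 ± 0.16].

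Of the other genes of lowest p in the lower direction, Krtap17-1, a keratin-associated protein gene, was 4.98, 4.94 and 4.71, against 6.80, 7.93 and 7.26, a difference of -2.45 ± 0.32 (adjusted p 0.329) [-2.37 ± 0.36]. Cds2, which makes the CDP-diacylglycerol needed for phosphoinositides, was 11.55, 11.53 and 11.66, against 12.24, 12.06 and 12.15, a difference of -0.57 ± 0.10 [-0.61 ± 0.11]. Kcnh1, a potassium channel gene, differed by -1.44 ± 0.25 [-1.32 ± 0.27] and 4930486L24Rik by -1.95 ± 0.27 [-1.78 ± 0.28]. Ldlrad4, an inhibitor of TGF-beta signalling, was 3.22, 4.02 and 3.61, against 5.12, 5.41 and 5.06. It was kept only through its Radiation values, since the SIMVA-Radiation values lay under the filter, so its difference and test are not used. A further 3238 probe sets without a single gene symbol were tested apart by limma, and 0 passed, with 373 at an unadjusted p under 0.05.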

How the data were processed

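Lung RNA was measured on 12 Affymetrix arrays, and 6 entered the fit. The values are log2 intensities as deposited. Per the submitters' processing notes, MAS5 and GCRMA were used. Versions and settings were not given in the sources used here, and the number of arrays limits the precision. The table holds 45101 probe sets, and 64 are controls that were dropped. By the platform annotation 34945 probe sets had 1 symbol, 932 several and 9160 none, and 34754 of the first matched RefSeq. A probe set was kept above log2 4.79, the median of the 6 arrays, on at least 3 arrays, and the brightest of 19711 kept probe sets stood for each of 11441 genes. The group means were fitted with limma 3.58.1 (R 4.3.3) without a replicate block, with a trend in eBayes. The p-values are two-sided, adjusted by Benjamini and Hochberg over all genes tested, with a threshold of 0.05. The fit was also run on simulated data with independent noise, capped at the median spread, and added shifts. That checks the calculation and not how the fit behaves on these arrays. Values after ± are SEs.

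The members, the 36 gene lists and the tests were chosen with earlier results of these data known, from general knowledge of each group's genes. Named genes are the 10 of lowest p in each direction, up to 4 members of lowest p without overlap plus the brightest member of each list described, and check genes such as Cdkn1a, Eda2r and Xist. Some members this rule would name are not described, and some members outside it are named to show the spread of a list. Alternatives changed the filter, scale, probe set choice, arrays and variance model. Counts without SIMVA-Radiation 3 of genes whose groups do not overlap were added after seeing the data.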

Additional observations from a re-analysis of the deposited data

How the results depend on the processing

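The count of genes that passed was 0 in 19 of 21 alternatives, which covered filters, scales, probe set choice, fits with all 4 groups and other variance models. Leaving out each array in turn gave between 0 and 63 genes, and 63 came without Radiation 3. With SIMVA-Radiation 3 and Radiation 1 both left out, 3 genes passed, Krt4 and 2 others. With the replicate number as a block, limma called 0 genes, with 1622 at an unadjusted p under 0.05 and a lowest adjusted p of 0.155. Deviations of same-numbered arrays correlated by 0.244, 0.0586 and 0.398, so the numbers were not taken to pair the samples, and SIMVA-Radiation 2 correlated best with Radiation 1 (0.435). The number at an unadjusted p under 0.05 was 1326 as reported, 511 with all 4 groups as 11 samples and 3605 with array weights. For 117 of the genes named here the alternatives gave 2329 values. Of these, 2307 kept their direction and their side of the threshold, 9 passed the threshold and 13 turned round. Averaging probe sets turned Napsa to 0.16, Ctnnd1 to 0.40, Tmem100 to 0.52 and Mdm2 to -0.13. Centring turned Mdm2 to -0.33, Hmgcs1 to -0.27 and Gstp1 to -0.14. With single arrays left out, Mdm2 ran from -0.060 to 0.18 and Acta1 from -1.88 to 4.06, below 0 without Radiation 3 or without either SIMVA-Radiation 1 or 2. The causes were not tested. Of 720 list medians, 676 moved by less than the spread between arrays and 44 by more, 21 of them under centring. With 3 arrays a group, of which 1 is near-identical to arrays of another group, small differences could not be resolved.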

Other observations

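Gene groups of stress, rhythm and growth that the text has not described held no called gene either. Square brackets again hold differences without SIMVA-Radiation 3. Nrf2 target genes, which protect against oxidants, had a median difference of -0.042 over 24 genes with 3 wholly above and 1 wholly below the Radiation arrays (-0.021, 8 and 1 without SIMVA-Radiation 3). Aox1, an aldehyde oxidase, was 10.69, 10.49 and 10.63 on SIMVA-Radiation arrays 1 to 3, against 10.15, 9.67 and 10.17 on Radiation arrays 1 to 3, a difference of 0.61 ± 0.17 (adjusted p 0.428) [0.59 ± 0.20]. The glutathione transferase genes Gsta4 and Gstp1 differed by 0.49 ± 0.19 [0.56 ± 0.21] and 0.22 ± 0.085 [0.26 ± 0.09], the second turning to -0.14 after centring on array medians. Ephx1, an epoxide hydrolase, differed by -0.50 ± 0.23 [-0.23 ± 0.12]. Genes that glucocorticoids induce had a median of -0.23 over 21 genes, with 2 wholly lower (9.52%, under the 13.6% of all genes), and of -0.054 with 4 wholly lower and 1 higher without SIMVA-Radiation 3. The separated genes were Klf9 and Tsc22d3. Klf9, a factor in this response, was 14.69, 14.51 and 14.61, against 14.99, 14.79 and 14.97, a difference of -0.31 ± 0.091 [-0.31 ± 0.10], and Tsc22d3 (GILZ) was 12.36, 12.15 and 11.50, against 12.68, 12.77 and 12.50, a difference of -0.65 ± 0.23 [-0.39 ± 0.13].

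Clock genes had a median of -0.25 over 17 genes, and of -0.069 without SIMVA-Radiation 3, when 3 were wholly lower. With all arrays the 1 separated gene was Nr1d1 (REV-ERB alpha), at 7.98, 7.82 and 7.18, against 8.60, 9.15 and 7.99, a difference of -0.92 ± 0.35 [-0.68 ± 0.35]. The hour at which lungs were taken is not given in the labels. Immediate early and heat shock genes had a median of 0.16 over 28 genes (-0.20 after centring), with 2 wholly above and 1 below, or 0.21, 8 and 2 without SIMVA-Radiation 3. Nr4a1, an early response receptor, was 11.09, 11.56 and 12.45, against 10.17, 10.32 and 10.71, a difference of 1.30 ± 0.35 [0.93 ± 0.23], and Egr1, an early response factor, differed by 0.62 ± 0.28 [0.48 ± 0.31]. Hspa5, the main chaperone of the endoplasmic reticulum, was 14.26, 14.17 and 14.13, against 14.43, 14.46 and 14.65, a difference of -0.33 ± 0.093 [-0.30 ± 0.10]. Cell cycle genes had a median of 0.31 over 27 genes, 0.70 without SIMVA-Radiation 3 (when 10 lay wholly above and 1 below) and -0.05 after centring, and list means of 9.10, 8.42 and 7.32, against 7.38, 8.44 and 8.35. Ccnd1 (cyclin D1), the 1 gene separated with all arrays, was 12.71, 12.94 and 12.40, against 13.11, 13.87 and 13.46, a difference of -0.79 ± 0.23 [-0.65 ± 0.23].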
